A study of Mus musculus with 8 samples.

Results

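The 4 ERBB receptor genes (Egfr, Erbb2, Erbb3 and Erbb4) and 6 genes for their ligands (Ereg, Areg, Hbegf, Tgfa, Btc and Nrg1) were followed through 8 mouse RNA-seq libraries. They were taken by symbol from the table of raw read counts and made up 10 of its 23478 genes. All 10 passed the filter on low counts, Erbb4 with no more than 28 counts in any library. The libraries form 4 groups of 2 replicates. DCC control and DCC IFN-gamma are disseminated cancer cells taken from bone marrow of mice whose breast cancer had spread spontaneously, and then cultured, the second after treatment with IFN-γ, the cytokine of CD4 Th1 cells. Early lesion holds primary cancer cells of an early mammary tumour lesion, with neuT in the sample titles. TUBO is a mouse breast cancer line, known as a clone grown from a mammary carcinoma of a rat neuT transgenic mouse. The labels give the genotype WT for all 8 libraries, while the protocol calls the mouse model transgenic, and they mark early lesion and TUBO as controls without treatment. The IFN-γ dose and time, the promoter driving neuT, the strain and the age of the animals, and any pooling of animals are not given in the sources used here. Replicates are labelled biological, with no word on separate animals or cultures. The p-values weigh differences between groups against the spread between replicate libraries, estimated over the 4 groups together. Whether that spread is one between animals is not given. The series poses 2 questions, what separates disseminated cells from tumour cells and what the cytokine of an anti-tumour Th1 response does to their RNA.

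ERBB receptors are receptor tyrosine kinases that work as pairs. Ligands of the EGF type are made as membrane-bound precursors, cut free by metalloproteases of the ADAM family, and bind Egfr (Tgfa and Areg), Egfr and Erbb4 (Ereg, Hbegf and Btc) or Erbb3 and Erbb4 (neuregulin 1, from Nrg1). Erbb2 has no known soluble ligand and serves as partner of the others, and Erbb3 has a weak kinase and signals through such a partner, mainly to PI3K. In the mammary gland Egfr and Areg serve duct growth, and an activated rat Erbb2, neuT, drives the tumours of this model. Rat and mouse Erbb2 are close in sequence, so reads of the transgene may be counted on mouse Erbb2, and transgene and mouse reads cannot be told apart here.

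Libraries held 15432210 to 30168475 reads on genes, and 3 counts stood for 0.0953 to 0.183 CPM (counts scaled to the size of the library). The share of reads on no annotated gene was 49.2% in DCC control replicate 1 and 44.1% in early lesion replicate 2, against 18.3% to 31.0% in the other 6. Levels per length are given as CPM per kilobase of exon (RPKM). As a measure of background, the summed CPM of 1429 genes for olfactory and vomeronasal receptors (a choice made with earlier results known) was divided by their summed exon length. This level, a mean per kilobase that can be set beside the RPKM of 1 gene, was 0.0984 RPKM in DCC control replicate 1 and 0.0665 in early lesion replicate 2, and 0.0031 to 0.0154 in the other libraries. The 20 epithelial markers checked against the label "cancer cells" summed to 4542 to 4736 CPM in early lesion and 7413 to 7964 CPM in TUBO. In DCC control they summed to 9.03 to 13.8 CPM and in DCC IFN-gamma to 4.88 to 6.05 CPM, where 9 of them (Epcam, Cldn3, Cldn4, Cldn7, Esrp1, Grhl2, Elf3, Elf5 and Prss8) had no count. The 7 basal and myoepithelial markers summed to 91.8 to 118 CPM in DCC control and 9.24 to 15.4 CPM in DCC IFN-gamma. Their sum was 4.96 to 9.10 CPM in early lesion and 2.10 to 7.35 CPM in TUBO. Of 5 tested, 2 were higher in control DCC than in early lesion, Trp63 (71.8 against 1.21 CPM) and Acta2 (29.4 against 0.162 CPM), and 0 lower. The 13 fibroblast and stromal markers summed to 10835 to 12439 CPM in DCC control, 1390 to 2593 CPM in DCC IFN-gamma and no more than 28.5 CPM in early lesion and TUBO. Higher in control DCC than in early lesion were 12 of 12 stromal markers tested, 6 of 6 osteoblast, 5 of 6 pan-leukocyte and 10 of 13 macrophage markers, and than in TUBO 12, 6, 6 and 11 of these. Treated DCC had 11, 6, 6 and 11 above early lesion and 11, 5, 6 and 12 above TUBO. Of all genes tested, 19.1% were higher in control DCC than in early lesion and 22.1% than in TUBO. For treated DCC these shares were 22.7% and 24.4%. Among these markers Cd14 was called lower in each of these comparisons, and Postn in those of treated DCC. Every difference between DCC and the other groups below stands beside these differences in markers, and the part of cell type in it was not tested. Fewer cells of a type and less RNA per cell cannot be told apart in such bulk libraries.

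Promoters of 6 members were found among the RefSeq promoters used here (GRCm38.p6), and those of Erbb3, Ereg, Hbegf and Nrg1 were not searched. Each runs from 250 bases before to 50 bases after the start RefSeq gives the gene. For Erbb2 that start lies past the one of GENCODE M21 used for its position below. Shown are Egfr and Erbb2, the receptors that rose with IFN-γ, and Areg and Btc, ligand genes that lie in the same stretch of chromosome 5. The sequences run 5′ to 3′ on the gene's strand, and capitals mark a match to any of 7 motifs searched on both strands.
Egfr, chr11:16751953-16752252, plus strand: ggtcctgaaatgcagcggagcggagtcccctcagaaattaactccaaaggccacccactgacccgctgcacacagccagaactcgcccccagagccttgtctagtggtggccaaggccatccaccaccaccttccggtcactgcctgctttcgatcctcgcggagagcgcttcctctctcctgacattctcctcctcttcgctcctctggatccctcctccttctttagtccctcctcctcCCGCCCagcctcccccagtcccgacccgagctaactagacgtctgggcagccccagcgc
Erbb2, chr11:98412234-98412533, plus strand: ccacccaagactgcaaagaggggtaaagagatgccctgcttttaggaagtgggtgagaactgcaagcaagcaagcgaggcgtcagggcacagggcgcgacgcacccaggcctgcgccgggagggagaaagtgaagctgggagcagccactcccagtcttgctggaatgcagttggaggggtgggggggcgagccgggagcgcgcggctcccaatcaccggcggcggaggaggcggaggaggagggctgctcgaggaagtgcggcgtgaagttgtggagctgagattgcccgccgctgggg
Areg, chr5:91139349-91139648, plus strand: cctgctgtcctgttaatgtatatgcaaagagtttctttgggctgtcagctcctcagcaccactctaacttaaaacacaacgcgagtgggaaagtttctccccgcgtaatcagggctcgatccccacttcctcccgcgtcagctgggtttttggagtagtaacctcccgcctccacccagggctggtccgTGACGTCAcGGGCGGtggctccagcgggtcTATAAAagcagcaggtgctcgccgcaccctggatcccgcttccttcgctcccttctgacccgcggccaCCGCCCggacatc
Btc, chr5:91402945-91403244, minus strand: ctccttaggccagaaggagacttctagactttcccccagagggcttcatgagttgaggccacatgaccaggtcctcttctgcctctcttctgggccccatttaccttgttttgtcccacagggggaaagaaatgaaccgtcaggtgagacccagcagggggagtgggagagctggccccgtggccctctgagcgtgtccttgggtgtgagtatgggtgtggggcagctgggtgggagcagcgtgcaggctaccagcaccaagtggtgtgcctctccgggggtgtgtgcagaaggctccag
The motifs were the interferon-γ element GAS (TTCNNNGAA, in 8.3% of all 32851 RefSeq promoters of this length), the interferon element ISRE (GAAA, any 2 bases, GAAA, 3.44%), AP-1 (TGANTCA, 7.81%), the cAMP element CRE (TGACGTCA, 1.79%), a TATA box (TATAAA, 13.6%), the GC box (GGGCGG, 35.7%) and the Grainyhead element (AACCGGTT, 0.146%). Areg held a CRE match that begins 61 bases before the start, a TATA box at 31 bases, and 2 GC boxes, the first of which begins 52 bases before the start and shares no base with the others. Egfr held a GC box at 9 bases and Tgfa 2, at 126 and 15 bases. Erbb2, Erbb4 and Btc held none of the 7, which says only that these letters are not in this window.

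Of the receptors, Erbb2 (chromosome 11, 98412470 to 98437716 in GRCm38) was counted in every library. It stood at 21.2 and 23.3 CPM in DCC control, 35.0 and 39.0 CPM in DCC IFN-gamma, 245 and 238 CPM in early lesion, and 258 and 245 CPM in TUBO. The 4 DCC libraries lay far below the other 4, and the 2 DCC groups did not overlap. In edgeR's quasi-likelihood test DCC control was 10.8-fold lower than early lesion (log2 fold change -3.44 ± 0.15 SE, adjusted p = 8.86e-08) and 11.3-fold lower than TUBO (-3.50 ± 0.15, adjusted p = 6.68e-08). Between TUBO and early lesion the log2 difference was 0.06 ± 0.14, which was not called (edgeR adjusted p = 0.777). IFN-γ-treated DCC were 1.66-fold above the control (0.73 ± 0.14, edgeR adjusted p = 0.00507), which was no longer called when DCC control replicate 1 was left out (adjusted p = 0.0586).

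Erbb3 (chromosome 10, 128567523 to 128589652), the neuregulin receptor, gave the widest gap among the receptors. It was at 0.609 and 0.673 CPM in DCC control, 0.183 and 0.209 CPM in DCC IFN-gamma, 159 and 167 CPM in early lesion, and 200 and 193 CPM in TUBO. DCC control thus had 10 and 17 counts, and treated DCC 5 counts in each library. Per length, these were 0.101 and 0.112 RPKM in DCC control, where the sensory receptor level was 0.0984 and 0.0154, and 0.0305 and 0.0347 RPKM in DCC IFN-gamma, where it was 0.0081 and 0.0047. DCC control was lower than early lesion by a log2 difference of -7.97 ± 0.21 (edgeR adjusted p = 1.01e-08). Treated DCC were lower than control DCC (-1.70 ± 0.33, edgeR adjusted p = 0.00575), but not when DCC control replicate 2 (adjusted p = 0.0801) or DCC IFN-gamma replicate 1 (0.0503) was left out, or when only these 2 groups were fitted (0.229).

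Egfr (chromosome 11, 16752203 to 16918158), the receptor of most of the ligands here, was 9.99-fold lower in control DCC than in early lesion. Its level was 2.92 and 3.60 CPM in DCC control, 14.3 and 12.7 CPM in DCC IFN-gamma, 34.3 and 31.4 CPM in early lesion, and 26.1 and 24.5 CPM in TUBO. No groups overlapped, and the treated DCC stood between the control DCC and the tumour cells. The rise with IFN-γ was 4.11-fold (log2 2.04 ± 0.23, edgeR adjusted p = 2.00e-04), and treated DCC remained 2.43-fold below early lesion (adjusted p = 6.87e-04) and 1.88-fold below TUBO (adjusted p = 0.00544). That last call was lost without TUBO replicate 1 (edgeR adjusted p = 0.0535). TUBO and early lesion were not told apart (log2 -0.38 ± 0.21, edgeR adjusted p = 0.222). Erbb4 (chromosome 1, 68032186 to 69108059) had 28 and 7 counts in control DCC, 0 and 1 in treated DCC, 0 and 15 in the early lesion cells, and 0 and 8 in TUBO. Its highest values, 0.138 RPKM in DCC control replicate 1 and 0.0542 RPKM in early lesion replicate 2, came from the libraries with the highest sensory receptor level (0.0984 and 0.0665 RPKM), and it was called in none of the 6 comparisons (edgeR adjusted p from 0.269 to 0.79, unadjusted p from 0.135 to 0.693).

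Set per length, so that genes can be compared, Erbb2 was the most abundant receptor RNA in every library. Its level may include neuT reads in any group that carries the transgene. It made up 89.1% to 90.8% of the summed receptor RPKM in DCC control, 83.9% to 86.6% in DCC IFN-gamma, 59.9% to 61.5% in early lesion and 57.9% to 58.2% in TUBO. Erbb3 held 34.5% to 39.4% in early lesion and TUBO and no more than 2.27% in DCC. Egfr held 13% to 15.8% in treated DCC, against 5.64% to 6.46% in control DCC and 2.66% to 3.96% in early lesion and TUBO. The sum itself was 4.57 to 4.92 RPKM in DCC control, 8.01 to 8.64 RPKM in DCC IFN-gamma and 76.3 to 85.2 RPKM in early lesion and TUBO.

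**Figure D1:**
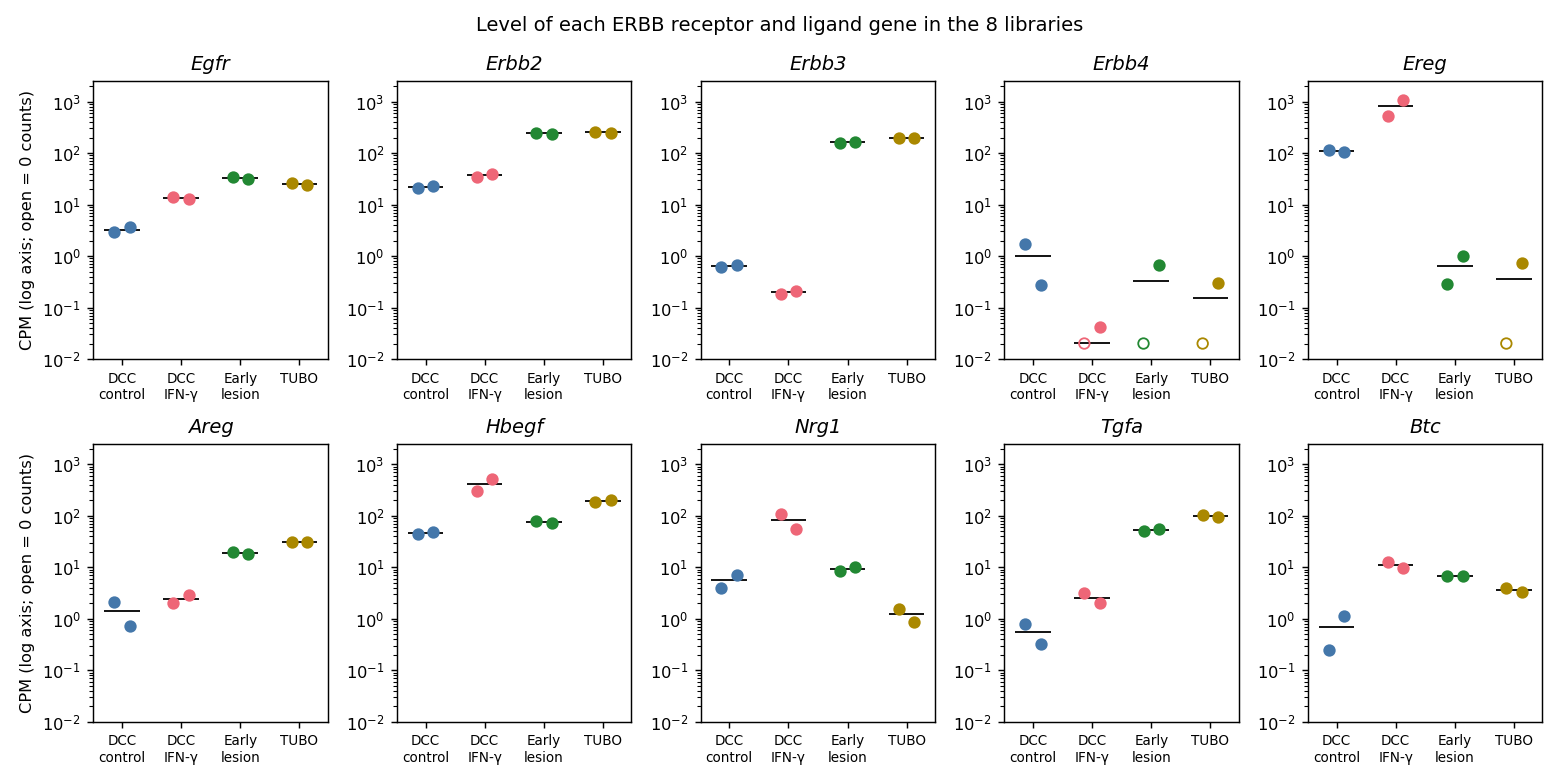
CPM of each of the 10 genes (log axis) in the 8 libraries of the 4 groups; points are libraries, bars are group means, and open points at the bottom are libraries with 0 counts. Erbb2 and Erbb3 are low in both DCC groups, Ereg is high in them (104 to 1091 CPM), and Egfr in treated DCC lies between control DCC and the tumour cells.

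Of the ligands, Ereg (epiregulin, chromosome 5, 91074622 to 91093646) was high in DCC and low in the tumour cells. It had 112 and 104 CPM in DCC control and 531 and 1091 CPM in DCC IFN-gamma, but 0.286 and 0.981 CPM in early lesion and 0 and 0.725 CPM in TUBO. The groups of DCC and of tumour cells did not overlap, and the 2 treated libraries differed from each other by more than those of control DCC. DCC control exceeded early lesion by a log2 difference of 7.5 ± 0.88 (edgeR adjusted p = 7.70e-04) and TUBO by 8.26 ± 0.93 (adjusted p = 6.02e-04). The first difference was 6.77 without early lesion replicate 1 and 8.53 without replicate 2, and the second 7.27 without TUBO replicate 1. Without TUBO replicate 2 no Ereg count is left in TUBO. The rise with IFN-γ was 7.51-fold (log2 2.91 ± 0.64, edgeR adjusted p = 0.0229). It was not called in DESeq2 (adjusted p = 0.144) or without any 1 of the 4 DCC libraries (edgeR adjusted p from 0.0561 to 0.28).

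Areg (amphiregulin, 91139599 to 91148432) begins 46 kb past the end of Ereg on chromosome 5 and was low in DCC and high in the tumour cells, the reverse of Ereg. It stood at 2.13 and 0.713 CPM in DCC control, 2.02 and 2.84 CPM in DCC IFN-gamma, 19.9 and 18.4 CPM in early lesion, and 31.1 and 30.2 CPM in TUBO. The DCC groups overlapped each other and lay below the tumour cells. DCC control was 14-fold lower than early lesion (log2 -3.81 ± 0.44, edgeR adjusted p = 6.99e-05) and 22.4-fold lower than TUBO (adjusted p = 2.30e-05), and the change with IFN-γ was not called (0.83 ± 0.44, adjusted p = 0.214). Without DCC control replicate 1, where Areg was the higher, that change was called (log2 1.76, edgeR adjusted p = 0.0206), and the differences from early lesion and TUBO were -4.74 and -5.42. Without replicate 2 the latter were -3.17 and -3.85. Btc (betacellulin, 91357261 to 91402994, 263.6 kb from Ereg) followed another order. Its counts gave 0.243 and 1.11 CPM in DCC control, 12.8 and 9.68 CPM in DCC IFN-gamma, 6.80 and 6.87 CPM in early lesion, and 4.04 and 3.28 CPM in TUBO. DCC control was lowest, with 4 and 28 counts, and its replicate 1 (0.0539 RPKM) lay under the sensory receptor level of that library. Btc rose 15.8-fold with IFN-γ (log2 3.98 ± 0.63, edgeR adjusted p = 0.00151; log2 3.34 without DCC control replicate 1 and 5.50 without replicate 2), to a level not told apart from early lesion (0.72 ± 0.54, adjusted p = 0.303). Treated DCC exceeded TUBO (1.62 ± 0.55, edgeR adjusted p = 0.0353), which was not called when any 1 of these was left out: DCC IFN-gamma replicate 1 (0.153), TUBO replicate 1 (0.0669) or TUBO replicate 2 (0.142).

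Hbegf (heparin-binding EGF-like growth factor, also the receptor of diphtheria toxin in man) was abundant in all groups. It had 44.9 and 47.8 CPM in DCC control, 296 and 516 CPM in DCC IFN-gamma, 78.8 and 73.1 CPM in early lesion, and 183 and 198 CPM in TUBO. The 4 groups stood apart without overlap, treated DCC highest and control DCC lowest. With IFN-γ it rose 8.76-fold (log2 3.13 ± 0.25, edgeR adjusted p = 2.53e-05), to 5.35-fold above early lesion (adjusted p = 2.18e-05) and 2.13-fold above TUBO (adjusted p = 0.00297). Control DCC were 1.64-fold below early lesion (edgeR adjusted p = 0.0325), a call lost without any 1 of the 4 libraries (adjusted p from 0.068 to 0.149).

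Tgfa (transforming growth factor alpha, chromosome 6, 86195223 to 86275719) was low in DCC. Its levels were 0.791 and 0.317 CPM in DCC control (13 and 8 counts), 3.12 and 2.0 CPM in DCC IFN-gamma, 50.3 and 54.5 CPM in early lesion, and 101.1 and 94.0 CPM in TUBO. The groups did not overlap, and both DCC groups lay far under the tumour cells. DCC control was 100.6-fold lower than early lesion (log2 -6.65 ± 0.36, edgeR adjusted p = 2.72e-07) and treated DCC 20.3-fold lower (adjusted p = 1.17e-06). The rise with IFN-γ was 4.95-fold (log2 2.31 ± 0.38, edgeR adjusted p = 0.00192) and was not called when only these 2 groups were fitted (0.0777). Without DCC control replicate 1 or 2 the log2 rise was 3.0 or 1.70, and the difference from early lesion was -7.35 or -6.04. In DCC control replicate 1 Tgfa was at 0.122 RPKM, near the sensory receptor level of 0.0984 there.

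Nrg1 (neuregulin 1, chromosome 8, 31814551 to 32884029), the ligand of Erbb3 and Erbb4, stood at 3.90 and 7.17 CPM in DCC control, 107 and 55.4 CPM in DCC IFN-gamma, 8.36 and 10 CPM in early lesion, and 1.55 and 0.877 CPM in TUBO. Treated DCC were highest and TUBO lowest, with no overlap between groups. It rose 14.5-fold with IFN-γ (log2 3.85 ± 0.43, edgeR adjusted p = 5.16e-04), while Erbb3 in the same treated libraries had 5 counts each and Erbb4 0 and 1. Treated DCC exceeded early lesion 8.82-fold (edgeR adjusted p = 3.80e-04), and TUBO was 7.49-fold below early lesion (adjusted p = 0.00244). Control DCC and early lesion were not told apart (log2 -0.71 ± 0.41, edgeR adjusted p = 0.227).

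Per length, the makeup of the ligand RNA differed between DCC and tumour cells. Ereg made up 68.7% to 70.1% of the summed ligand RPKM in DCC control and 62.7% to 69.3% in DCC IFN-gamma, and at most 0.575% in early lesion and TUBO. Hbegf followed in DCC with 24.0% to 29.9%. In early lesion Areg (36.6% to 38.3%), Hbegf (36.5% to 38.1%) and Tgfa (18.1% to 20.3%) made up most of it, and in TUBO Hbegf led with 47.2% to 50.3%. Summed over the 6 ligands, the level was 36.6 to 38.8 RPKM in DCC control, 205 to 381 RPKM in DCC IFN-gamma, 41.4 to 42.8 RPKM in early lesion and 80.0 to 81.3 RPKM in TUBO. Control DCC and early lesion thus had close ligand sums, with Hbegf a large part of both, and the sum of treated DCC was the highest.

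**Figure D2:**
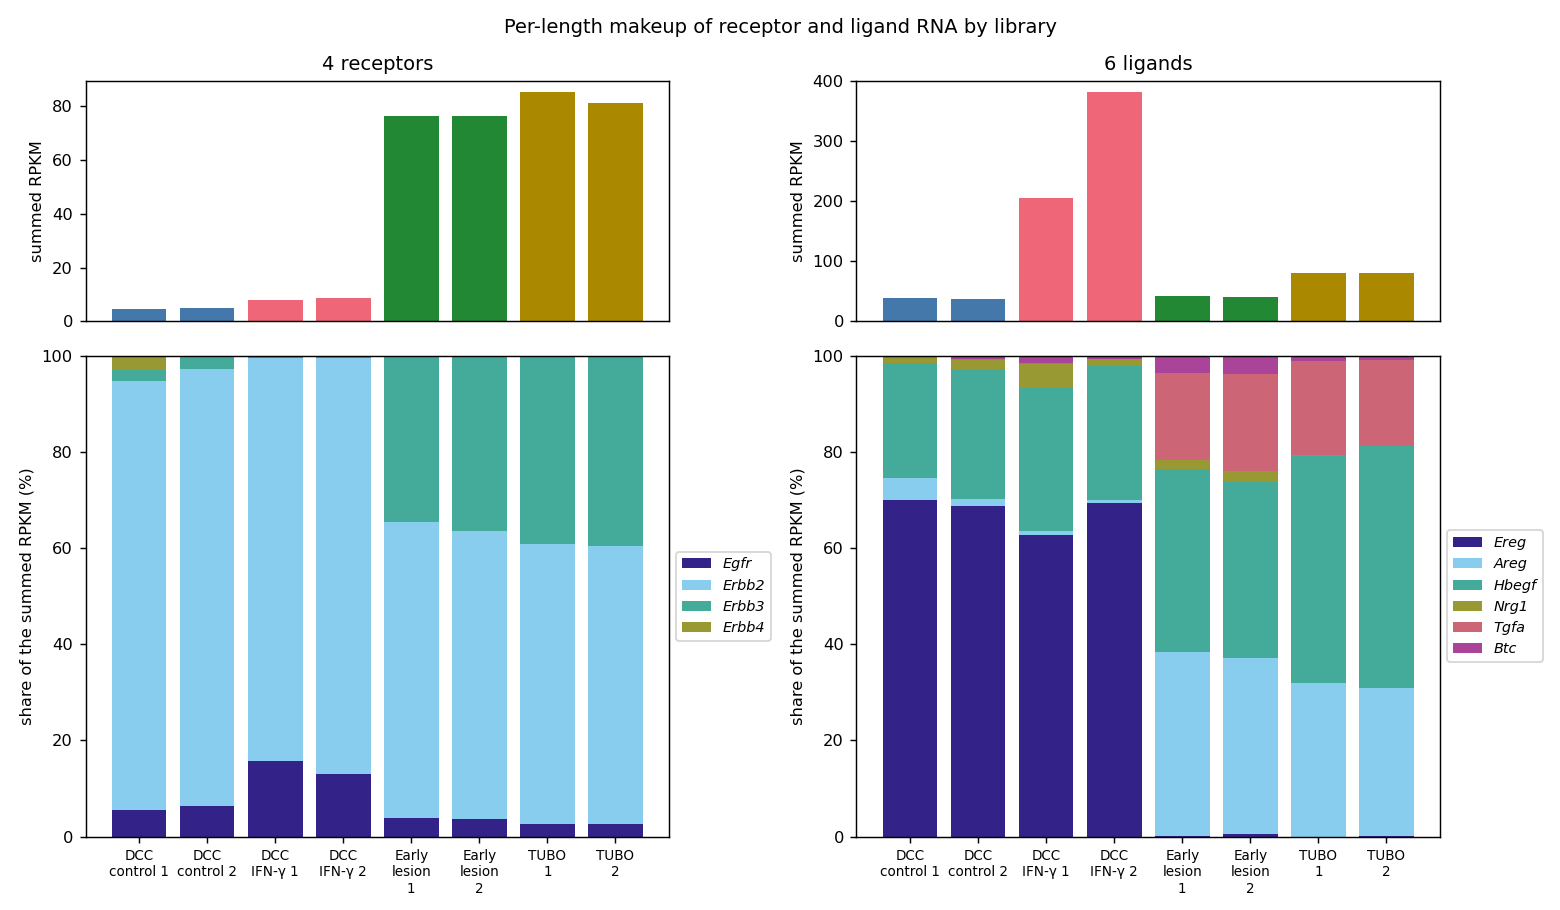
Summed RPKM (top, linear bars from 0) and each gene's share of that sum in percent (bottom) for the 4 receptors (left) and the 6 ligands (right), 1 bar per library. Ereg fills 62.7% to 70.1% of the ligand bars of DCC, and Erbb3 fills 34.5% to 39.4% of the receptor bars of early lesion and TUBO.

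Taking the members by comparison, IFN-γ-treated against control DCC gave 7 higher, 1 lower (Erbb3) and 2 not called (Erbb4 and Areg), where 12.6% of the 17069 genes tested were called higher, 8.83% lower and 21.4% in all. The median log2 fold change of the 10 was 2.17, beside -0.20 over all genes. With DCC control replicate 1 and early lesion replicate 2 both left out, Erbb2 and Ereg lost their calls. That fit has fewer libraries, and the share of all genes called in it is not given here. Calls lost in it, here and below, cannot be set beside the shares over all genes. Of 13 markers of macrophages and monocytes 11 rose with treatment, among them Mpeg1 from 21.7 to 578 CPM and C1qa from 10.7 to 203 CPM. That list summed to 151 to 152 CPM in DCC control and 1689 to 2326 CPM in DCC IFN-gamma, with no marker at 0. The 6 pan-leukocyte markers went from 34 to 38.2 CPM to 372 to 404 CPM, while of 6 osteoblast markers 3 fell in edgeR. Those were Alpl from 1429 to 61.5 CPM, Ibsp from 522 to 5.82 CPM and Runx2 from 335 to 79.8 CPM, and Sp7 and Bglap were lower in both treated libraries without a call. Spp1, at 16155 and 17403 CPM on average, made up most of that list's sum and was not called. Of 12 fibroblast and stromal markers tested 7 fell, among them Col1a1 from 4087 to 467 CPM, and Pdgfra rose. Macrophages are known to express Ereg and Hbegf, and the part of any of these cells in the members' changes was not tested. As a check of the treatment, Gbp2, a guanylate-binding protein gene induced by IFN-γ, rose from a mean of 8.98 to 1467 CPM (log2 7.34 ± 0.31, edgeR adjusted p = 7.66e-07).

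Control DCC against early lesion gave 1 member higher (Ereg), 7 lower and 2 not called (Erbb4 and Nrg1). Of all genes tested 19.1% were higher, 18.7% lower and 37.7% called in all. The median log2 fold change was -3.29, beside 0.23 over all genes. Against TUBO, 2 members were higher (Ereg and Nrg1), 7 lower and 1 not called (Erbb4), beside 22.1% of all genes higher, 19.9% lower and 42% in all. These comparisons share the DCC control libraries, so their results are not independent. Treated DCC had 3 members higher than early lesion (Ereg, Hbegf and Nrg1) and 5 lower (Egfr, Erbb2, Erbb3, Areg and Tgfa), beside 22.7%, 19.2% and 41.9% of all genes higher, lower and in all. Against TUBO they had 4 higher, with Btc added, and the same 5 lower, beside 24.4%, 19.6% and 44%.

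TUBO against early lesion gave 3 calls among the 10 members, beside 24.1% of all genes called, 11.4% higher and 12.7% lower. Hbegf was 2.50-fold and Tgfa 1.86-fold higher in TUBO (edgeR adjusted p = 0.00236 and 0.022), and Nrg1 was lower. No receptor was called. With only these 2 groups in the fit, 5 members were called, Areg (0.00518) and Egfr (0.0491) in addition. Without early lesion replicate 2 and DCC control replicate 1, Nrg1 alone was called.

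**Figure D3:**
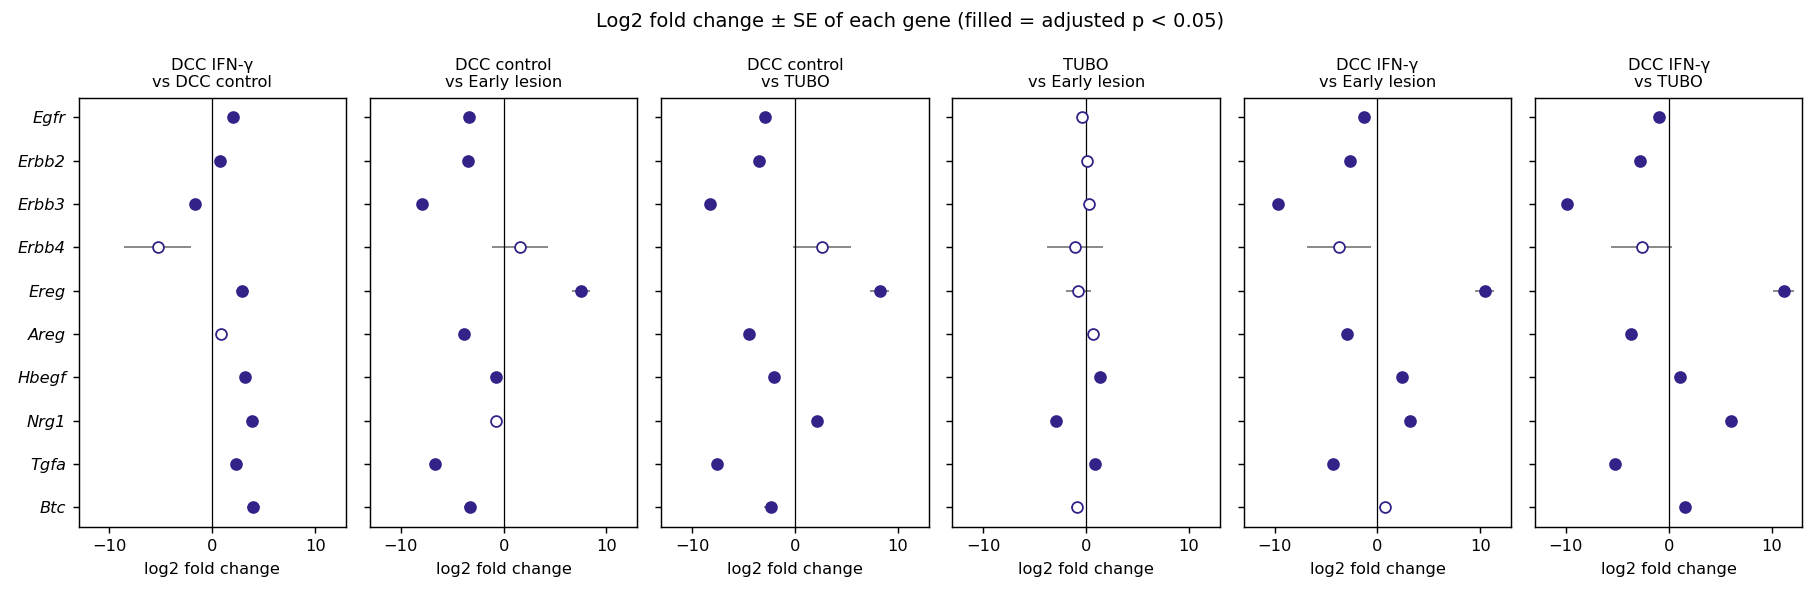
Log2 fold change ± SE of the 10 genes in each of the 6 comparisons (first group minus second); filled points have an adjusted p under 0.05 in edgeR. In all, 7 filled points lie right of 0 for IFN-γ against control DCC, and 3 points are filled for TUBO against early lesion.

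The genes around mouse Erbb2 on chromosome 11 were read beside it. Of 19 listed neighbours 16 were tested (Tcap, Pnmt and Gsdma were not). In control DCC against early lesion 6 were lower (Ppp1r1b, Stard3, Mien1, Grb7, Csf3 and Med24), 2 higher (Ormdl3 and Thra) and 8 not called (Med1, Cdk12, Neurod2, Pgap3, Ikzf3, Zpbp2, Psmd3 and Nr1d1). That is 8 of 16 called, where 37.7% of all genes were. With DCC control replicate 1 and early lesion replicate 2 left out, fewer were called in each direction. The median log2 fold change of the 15 tested then was -0.22. The median log2 fold change of the 16 was -0.06, against -3.44 for Erbb2. Nearest to Erbb2, Pgap3, which remodels lipid anchors of proteins and starts 12 kb away, changed by 0.25 ± 0.48 (not called). Mien1, which starts 26.5 kb away on the opposite strand and shares 9 exon bases with Erbb2, differed by -1.0 ± 0.19 (edgeR adjusted p = 0.00173). Grb7, an adaptor that binds ERBB receptors and starts 33.9 kb away, had 0.365 CPM in DCC control replicate 1, the library with the highest background, none in replicate 2, no count in DCC IFN-gamma, 30.6 to 39.7 CPM in early lesion and 45.3 to 50.4 CPM in TUBO. Its difference between DCC control and early lesion was -7.84 ± 0.69 (edgeR adjusted p = 1.27e-04). Stard3, a cholesterol-binding protein of endosomes 54.1 kb away, differed by -1.62 ± 0.18 (edgeR adjusted p = 4.58e-05) and Ppp1r1b, a phosphatase inhibitor, by -4.16 ± 0.38. Csf3, 288.8 kb away, averaged 29.2 CPM in early lesion and 41.2 CPM in TUBO. Its mean of 0.274 CPM in DCC control came from replicate 1 alone, the library with the highest background. Against TUBO 7 neighbours were lower, 1 (Thra) higher and 8 not called, where 42% of all genes were called. With IFN-γ Stard3 (1.05, edgeR adjusted p = 0.0021) and the circadian repressor Nr1d1 rose, and Ppp1r1b fell from 0.411 CPM to no count.

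**Figure D4:**
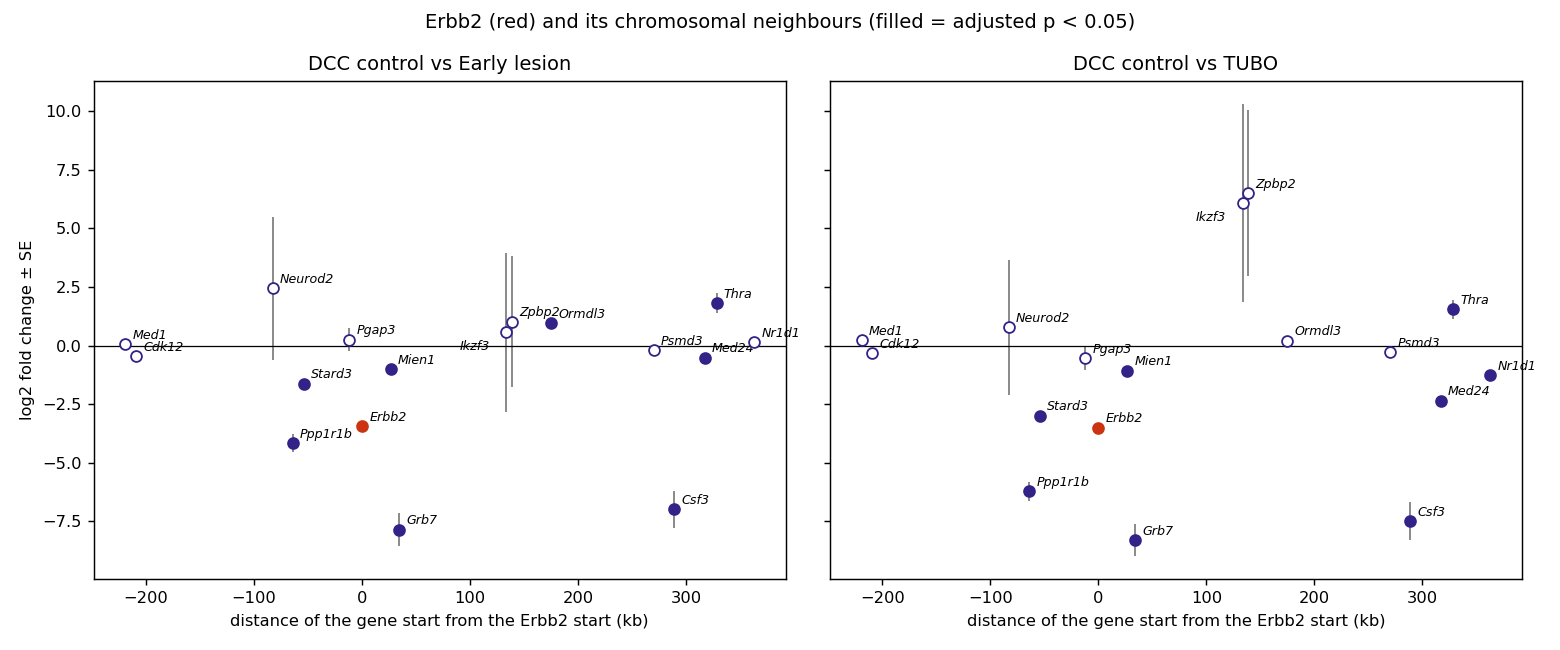
Log2 fold change ± SE of Erbb2 (red) and its tested neighbours against the distance of their starts from that of Erbb2 (kb), for DCC control against early lesion (left) and against TUBO (right); filled points are called. Erbb2 lies at -3.44 and -3.50, Grb7, Ppp1r1b and Csf3 lie lower, and Pgap3, 12 kb away, lies near 0.

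Among other ligands of the family, Nrg2 had 24.4 to 28.3 CPM in early lesion and 36.1 to 37.2 CPM in TUBO, and 0.125 to 0.609 CPM over the DCC libraries. In control DCC against early lesion it was lower by a log2 difference of -5.56 (edgeR adjusted p = 1.43e-06). Egf itself was at 0.125 to 2.69 CPM in all 8 libraries. Of the 4 tested ligands outside the members (Epgn, Egf, Nrg2 and Nrg4, with Nrg3 under the filter), none was called with IFN-γ by edgeR, where 2 had an unadjusted p under 0.05 (Egf 0.0241 and Nrg4 0.0469, both lower in the treated libraries). Nrg2 was the 1 called in control DCC against early lesion. Of all genes tested, 21.4% were called with IFN-γ and 37.7% in control DCC against early lesion.

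Of 7 genes for ligand sheddases and their partners, 4 rose with IFN-γ and 1 fell. The list's median was 0.57, beside -0.20 over all genes, of which 12.6% were higher and 8.83% lower. Rhbdf2 (iRhom2, which brings Adam17 to the cell surface) rose from 3.89 to 15.1 CPM (log2 1.95, edgeR adjusted p = 1.97e-04). Adam12 rose from 1.80 to 8.90 CPM and Adam17, the main sheddase of these ligands, from 67.2 to 102 CPM (0.60, adjusted p = 0.0245). Timp3, an inhibitor of Adam17, fell from 1684 to 1150 CPM (-0.55, edgeR adjusted p = 0.0383). With DCC control replicate 1 and early lesion replicate 2 left out, fewer of the 7 were called in each direction, and their median was 0.55. Control DCC against early lesion had 18.7% of all genes lower and 19.1% higher. Of the 7 listed, 6 were lower there, Adam12, Rhbdf2 and Adam9 with the smallest p, and Timp3 was higher (log2 2.73, edgeR adjusted p = 1.01e-06). The list's median was -0.78, beside 0.23 over all genes. Here fewer were lower without those libraries, and the median was -0.88.

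Of 14 receptor inhibitors and ubiquitin ligases, 6 rose with IFN-γ, 2 fell and 6 were not called (median 0.25), where 12.6% of all genes were higher and 8.83% lower. Errfi1 (Mig6, an inhibitor of the Egfr kinase) rose from 140 to 599 CPM (log2 2.10, edgeR adjusted p = 1.24e-05) and Lrig1, which lowers receptor levels, from 11.3 to 61.1 CPM (2.42, adjusted p = 2.28e-05). The phosphatase gene Ptpn1 rose by 1.02, and the ligases Nedd4 and Cblb fell by 0.75 and 0.61 on the log2 scale. Without the 2 libraries named, fewer were called in each direction (median 0.32). Control DCC against early lesion had 4 higher and 3 lower (median 0.12), beside 19.1% and 18.7% of all genes. Without those libraries fewer were higher, and the median was 0.14. Cblb (281 against 9.84 CPM), Lrig3 (74.6 against 5.12 CPM) and Ptpn12 were higher, and Lrig1, Nedd4l and Cblc lower.

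Another list held 17 genes that ERK signalling is known to switch on, some of which feed back on it. Beside 12.6% of all genes higher with IFN-γ and 8.83% lower, 12 of these 17 were higher, 1 lower and 4 not called. Their median log2 fold change was 2.09, beside -0.20 over all genes. Without the 2 libraries named fewer were higher, and the median was 2.31. Phlda1 rose from 29.0 and 29.1 to 304 and 482 CPM (log2 3.76 ± 0.25, edgeR adjusted p = 6.88e-06). Spry2, a feedback inhibitor, rose from 17.6 and 20.1 to 108 and 141 CPM, and the AP-1 gene Fosl1 from a mean of 89.8 to 1193 CPM. The gene of this list that fell was Spry1, another Sprouty inhibitor, from 118 and 137 to 6.16 and 9.18 CPM (-4.05 ± 0.21, edgeR adjusted p = 1.83e-06). Set against early lesion, control DCC had 11 of 17 lower, 2 higher (Fosl1 and Egr1) and 4 not called, with a median of -2.25. Of all genes 18.7% were lower and 19.1% higher, with a median of 0.23. Dusp4, an ERK phosphatase, was 4.76 against 233 CPM (log2 -5.63, edgeR adjusted p = 4.58e-08), and Etv5 and Phlda1 were lower by log2 differences of -3.77 and -3.70. Without the 2 libraries fewer were called in each direction, and the median was -2.205. Treated DCC against early lesion gave 4 higher, 7 lower and 6 not called, with a median of -0.36. All genes gave 22.7% higher and 19.2% lower in that comparison, with a median of -0.18. There Phlda1 differed by 0.05 (edgeR adjusted p = 0.857). TUBO against early lesion had 11.4% of all genes higher and 12.7% lower, with a median of -0.27. In TUBO 10 of the 17 were above early lesion and 1 below (median 0.82). Without the 2 libraries fewer were called in each direction, and the median was 0.83.

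**Figure D5:**
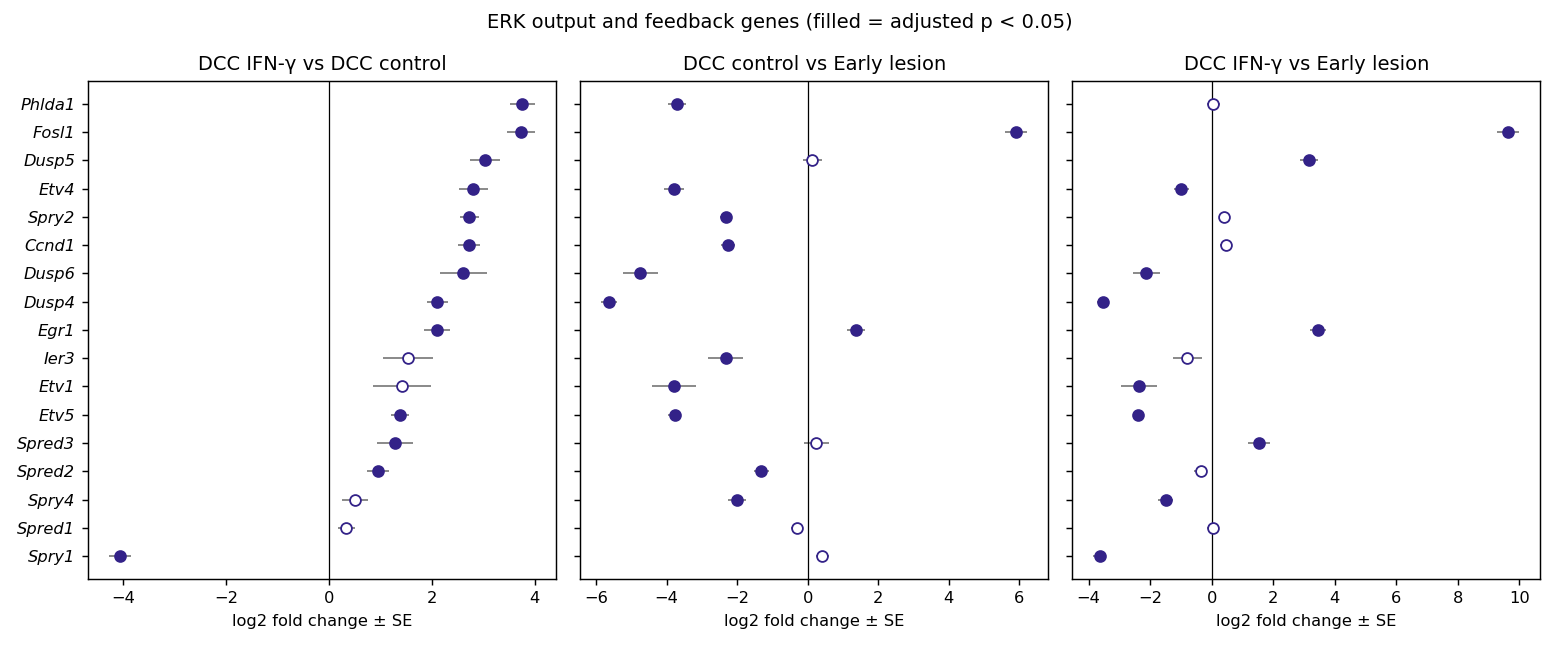
Log2 fold change ± SE of 17 ERK output and feedback genes in 3 comparisons, sorted by the change with IFN-γ; filled points are called in edgeR. Spry1 lies at -4.05 and 12 filled points lie right of 0 for IFN-γ against control DCC, while 11 lie left of 0 for control DCC against early lesion.

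The last lists were the adaptors and the core of the pathway. Of 17 adaptors and scaffolds 4 rose with IFN-γ (Gab2, Grb2, Nck2 and Eps8) and 3 fell (Frs2, Gab1 and Shc1), with a median of 0.22, where 12.6% of all genes were higher and 8.83% lower. Without the 2 libraries fewer were called in each direction, and the median of the 16 tested was 0.26. Gab2, which links receptors to PI3K, rose from 8.50 to 45.2 CPM (log2 2.41, edgeR adjusted p = 4.53e-05). Of the adaptors 3 were higher in control DCC than in early lesion (Frs2, Shc2 and Memo1) and 7 lower, with Nck2, Gab1 and Eps8 the lowest in p. Of all genes 19.1% were higher and 18.7% lower. The adaptors' median was -0.38, and -0.59 for the 16 tested without those libraries, where fewer were called in each direction. Of 21 genes of the RAS-ERK and PI3K core 2 rose with IFN-γ, Pik3cb among them, 3 fell (Pik3r1, Pik3r2 and Pik3r3) and 16 were not called, with a median of -0.17. That is 5 called, where 21.4% of all genes were. Without the 2 libraries fewer were called in each direction, and the median was -0.20. Pik3cb, a catalytic PI3K subunit, rose from 11.1 to 48.7 CPM (log2 2.14, edgeR adjusted p = 3.23e-05). Control DCC had 6 of the 21 higher than early lesion and 5 lower (median 0.20), beside 19.1% and 18.7% of all genes. Without those libraries fewer were called in each direction, and the median was 0.14.

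Across the 8 libraries the tested genes whose log2 CPM was most like that of Erbb3 were Cldn3 (Pearson r = 0.9997), Tc2n (0.9996) and Cdh1 (0.9996), the first and last of them epithelial junction genes. Most like Erbb2 were St14 (0.999), Stac2 (0.998) and F3 (0.998), and most like Egfr were Kcnn4 (0.997), Acsl5 (0.997) and Nab1 (0.995). These values describe 8 libraries that fall into 4 groups and share 1 contrast of DCC against tumour cells.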

How the data were processed

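Total RNA was extracted with the RNeasy Mini Kit and, per the labels' protocols, libraries were prepared by Nugen's Ovation Mouse RNAseq Kit. The deposited table holds raw whole-number counts for each gene symbol, as the authors counted them. TopHat, HTSeq 0.6.1 and the build mm10 are listed, with no role, per the submitters' processing notes. The annotation, strand setting and filters are not given in the sources used here. Reads of genes that overlap on opposite strands (Ereg and Gm19610, Nrg1 and Gm26578, Tgfa and Gm43917) cannot be assigned with certainty. The 5 closing lines of the table, which name no gene, held 35.2% to 63.7% of reads and entered neither library sizes nor tests. The counts of replicates differed beyond sampling noise in each group, so each library counted as 1 sample. Chi-square over its degrees of freedom was 160.5 in DCC IFN-gamma, 33.5 in TUBO, 18.5 in early lesion and 17.4 in DCC control.

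CPM used TMM-normalized library sizes, and RPKM divided CPM by the exon-union length in GENCODE M21 (GRCm38), in which 21871 symbols were found. The test was edgeR 4.0.16's quasi-likelihood test (R 4.3.3, robust) in 1 model of 4 group means over 8 libraries, 4 residual degrees of freedom, after filterByExpr (minimum count 10). Genes with a Benjamini-Hochberg adjusted p under 0.05 over 17069 genes were called. SE is the size of the log2 fold change over the root of F. Alternatives were RLE factors, no filter, at least 50 counts in 2 libraries, a replicate block, DESeq2 1.42.0, only the 2 groups compared, and leaving out libraries. The test was tested on simulated data. Named genes are the 10 members, up to 3 called genes per direction of each pathway list by adjusted p, the neighbours of Erbb2, and for Egfr, Erbb2 and Erbb3 the 3 most correlated genes without predicted or clone names (log2 of CPM + 0.5). Egf, Eps8 and the marker genes given with values lie beyond that rule and were picked, with their values seen, to illustrate a list. Some items are not reported here. Members and lists were chosen with earlier results of these data known.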

Additional observations from a re-analysis of the deposited data

How the results depend on the processing

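Of 642 values of single genes recomputed under the alternatives, 599 kept their direction and their side of the threshold, 31 lost a call, 4 gained 1 and 8 changed sign, none of them a called value. Counts of members called stayed within 1.5 times of the main count, except in TUBO against early lesion, where 3 became 5 with only those groups in the fit and 1 with early lesion replicate 2 and DCC control replicate 1 left out (fewer libraries). Signs changed for Erbb2 in TUBO against early lesion without TUBO replicate 1 (range with 1 library left out -0.079 to 0.099), and for Ereg there without early lesion replicate 2 (0.28), without it and DCC control replicate 1 (0.28) and without TUBO replicate 1 (0.19; range -6.91 to 0.28). For Erbb4 they changed without DCC control replicate 1 (control DCC against early lesion, range -0.25 to 7.66), without early lesion replicate 2 (treated DCC against early lesion, range -6.13 to 2.36, and TUBO against early lesion, range -6.08 to 5.0) and without TUBO replicate 2 (treated DCC against TUBO, range -4.96 to 2.34); its counts are too low to give a direction. With 1 library left out, 6 to 7 members were called for IFN-γ, 7 for control DCC against early lesion, 8 to 9 against TUBO and 2 for TUBO against early lesion; such a fit assumes that a lone library varies like the others. The differences between replicates 2 and 1 of a group correlated across genes with those of other groups at -0.42 to 0.11. With 1 such difference per group, this cannot decide whether the replicate numbers pair the samples. With the replicate block, 7, 8, 9 and 3 members were called in these 4 comparisons, and Ereg lost its call with IFN-γ (adjusted p = 0.0524). Depth limits Erbb4 throughout, Erbb3 in both DCC groups, Ereg in early lesion and TUBO, and Tgfa and Btc in control DCC.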
